A study of Mus musculus with 9 samples.

Results

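The 7 genes described here encode enzymes that inactivate steroid hormones or turn one into another. They were Akr1c14, Akr1c18, Srd5a1, Hsd11b1, Hsd17b4, Hsd17b11 and Hsd17b12, chosen by gene symbol, and they are 7 of the 25059 genes in the data. Their RNA was measured in granulosa cells, the somatic cells that line the ovarian follicle and surround the oocyte, from Kunming mice at postnatal day 21. All mice had received 5 IU of PMSG, a gonadotropin that drives follicle growth. The 0 h group was taken 48 h after PMSG and had received no hCG, and the 1 h and 6 h groups were taken 1 h and 6 h after a further 5 IU of hCG, a gonadotropin that binds the receptor for LH and sets off ovulation. Each time had 3 libraries. No label says that these came from separate animals or pools, so p-values measure only how these libraries vary, and that variation may be technical. Time after hCG cannot be told apart from time of day.

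Before ovulation granulosa cells make estradiol, and after the LH surge they turn to progesterone as they begin to form the corpus luteum. The net output of a steroid depends on its synthesis and also on reductases and dehydrogenases that convert it. Members of the aldo-keto reductase family reduce keto groups of steroids in the cytosol, steroid reductases saturate the first ring of progesterone and testosterone, and hydroxysteroid dehydrogenases switch a hydroxyl and a keto group. Several enzymes named as steroid dehydrogenases also act on fatty acids.

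Levels are given in FPKM, the deposited unit, which counts fragments per kilobase of transcript, scaled to sequencing depth, and are summed over the rows of a gene. The FPKM sum of a library lay between 491920 and 570986, and 13587 to 13862 genes reached 1 FPKM in a library. The depth in reads is unknown, so no counting interval is given. A fold is a ratio of mean FPKM. A log2 change is on the log2(FPKM + 1) scale, which understates changes of low genes, and is given with its standard error from limma over all 9 libraries. A change was called where the p adjusted by Benjamini-Hochberg was below 0.05 over the 14535 genes that reached 1 FPKM in 3 libraries or more. All 10 granulosa markers were at 1 FPKM or more in every library. Their summed level was 9648 to 10292 FPKM at 0 h, 9536 to 14457 FPKM at 1 h and 3772 to 4176 FPKM at 6 h.

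Of the 7 genes, 3 lie on chromosome 13. In the GENCODE M21 annotation of mm10, Akr1c14 (ENSMUSG00000033715) spans chr13:4049011-4090688 on the plus strand. Akr1c18 (ENSMUSG00000021214) spans chr13:4132615-4150654 on the minus strand, 41926 bases further on in the same cluster. Hsd17b11 (ENSMUSG00000029311) spans chr5:103989762-104021919 and Hsd17b12 (ENSMUSG00000027195) chr2:94032689-94157964, both on the minus strand. The 250 bases before the transcription start that RefSeq gives (GRCm38.p6) are shown for these 4 genes, because Akr1c14 and Hsd17b11 had the largest called changes in either direction, Akr1c18 is the cluster neighbour of Akr1c14, and Hsd17b12 rose with Hsd17b11. Each runs 5′ to 3′ on the strand of its gene and ends at the base before the start. The windows are chr13:4059341-4059590, chr13:4150647-4150896, chr5:104021797-104022046 and chr2:94157910-94158159. The window of Akr1c14 lies inside the longer span that GENCODE gives that gene. The other windows reach into their GENCODE spans at the end nearest the start. Capitals mark matches, on either strand, to the motifs searched.
Akr1c14: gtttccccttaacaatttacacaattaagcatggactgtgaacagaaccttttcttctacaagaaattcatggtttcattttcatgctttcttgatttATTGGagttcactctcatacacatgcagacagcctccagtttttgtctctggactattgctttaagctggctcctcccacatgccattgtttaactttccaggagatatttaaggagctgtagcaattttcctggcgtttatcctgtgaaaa
Akr1c18: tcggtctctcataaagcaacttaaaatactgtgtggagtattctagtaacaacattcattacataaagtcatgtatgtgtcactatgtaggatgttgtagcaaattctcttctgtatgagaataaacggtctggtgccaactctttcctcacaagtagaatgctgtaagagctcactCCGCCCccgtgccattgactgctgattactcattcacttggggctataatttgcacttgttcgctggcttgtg
Hsd17b11: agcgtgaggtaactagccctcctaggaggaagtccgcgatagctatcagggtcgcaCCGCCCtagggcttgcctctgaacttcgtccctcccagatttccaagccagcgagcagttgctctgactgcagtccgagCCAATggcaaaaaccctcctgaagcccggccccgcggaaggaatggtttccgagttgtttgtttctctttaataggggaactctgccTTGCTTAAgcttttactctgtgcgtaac
Hsd17b12: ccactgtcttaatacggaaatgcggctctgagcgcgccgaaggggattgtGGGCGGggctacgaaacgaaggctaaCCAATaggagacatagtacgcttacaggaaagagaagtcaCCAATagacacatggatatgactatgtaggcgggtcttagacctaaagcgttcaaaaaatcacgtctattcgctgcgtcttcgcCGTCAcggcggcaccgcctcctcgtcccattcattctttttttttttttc

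The capitals in the Akr1c14 window are a CCAAT box (CCAAT, here on the opposite strand) 152 to 148 bases before the start. In the Akr1c18 window they are a GC box (GGGCGG, on the opposite strand) 73 to 68 bases before it. Akr1c18 thus shared no matched motif with Akr1c14. The Hsd17b11 window held a GC box, a CCAAT box and a C/EBP motif (TTGCNNAA or TTNNGCAA) 28 to 21 bases before the start. The Hsd17b12 window held a GC box, 2 CCAAT boxes and the core of a cyclic AMP response element (TGACG, on the opposite strand) 50 to 46 bases before it. That TGACG match, and the C/EBP motif and CCAAT box of Hsd17b11, lie inside the spans that GENCODE gives these genes. Among the 32851 RefSeq mouse promoters cut to the same length, 33.8% held CCAAT, 32.7% held GGGCGG, 17.8% held TGACG and 9.56% held the C/EBP motif. None of the 4 windows matched the NR4A motif AAAGGTCA (1.34% of promoters), the SF-1 or LRH-1 motif CAAGGTCA (1.33%), the full cyclic AMP element TGACGTCA (1.55%), the AP-1 motif TGANTCA (6.75%), the RUNX motif TGTGGT (14.0%), the GATA motifs AGATAA or TGATAA (16.6%), the E-box CACGTG (6.02%), TATAAA (12.4%) or the steroid receptor motifs TGTTCT or TGTACA (19.4%). TGACGTCA contains TGACG, so those searches overlap. A match describes letters and is not evidence of binding.

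At 6 h after hCG the group was recast. Akr1c14, which dominated it at 0 h, had fallen 10.03-fold, and Hsd17b11 and Hsd17b12 had risen 2.78-fold and 1.60-fold. Srd5a1 was lower as well, Hsd17b4 was slightly higher, and Hsd11b1 stayed too low to be tested. Against 0 h, 3 of the 6 tested genes were called higher and 2 lower, while 28.8% of all tested genes were called higher, 27.9% lower and 56.6% in either direction. With so large a share of all genes called, the count by itself says little about the enzymes. The median log2 change was 0.44 over the 6 enzyme genes and -0.0041 over all tested genes.

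**Figure D1:**
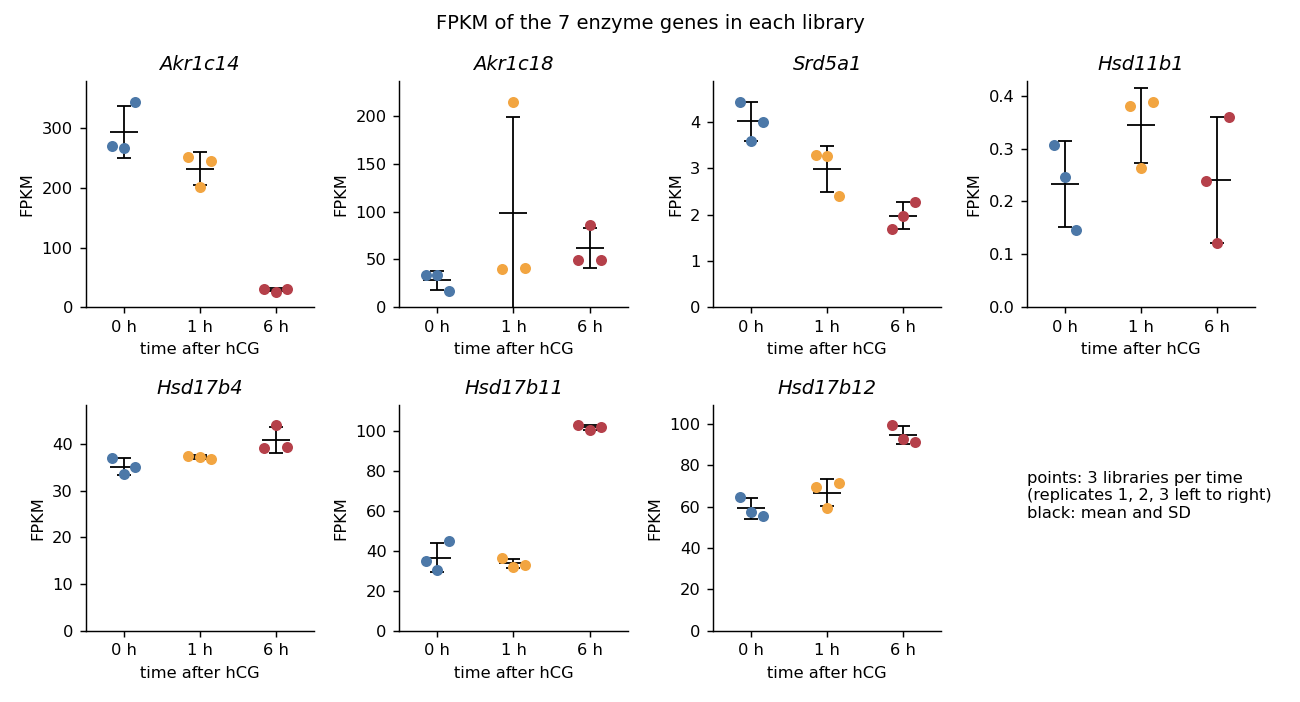
FPKM of each of the 7 genes in each library at 0, 1 and 6 h after hCG (points are libraries, black marks the mean and SD of 3, and every axis starts at 0, so the SD bar of Akr1c18 at 1 h is cut off at its lower end). Akr1c14 lies between 25.8 and 31.2 FPKM at 6 h, below every earlier library, and Hsd17b11 lies between 101 and 103 FPKM, above every earlier library.

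Akr1c14 encodes a hydroxysteroid dehydrogenase that reduces dihydrotestosterone and dihydroprogesterone to weaker or differently acting metabolites. It was at 271, 268 and 345 FPKM at 0 h, at 251, 201 and 245 FPKM at 1 h, and at 31.2, 25.8 and 31.2 FPKM at 6 h. The 3 libraries of 6 h lay far below all others, and those of 1 h lay below those of 0 h without overlap. The log2 change was -3.28 ± 0.13 at 6 h against 0 h (adjusted p 6.47e-08, limma) and -2.94 ± 0.13 at 6 h against 1 h (adjusted p 1.72e-07, limma), a 7.92-fold fall within those hours. At 1 h against 0 h it was -0.34 ± 0.13 and was not called (adjusted p 0.0999, limma). That difference was called when FPKM were scaled to a common sum (-0.50, adjusted p 0.0176) and under quantile normalization (-0.63, adjusted p 0.00793). By its mean level Akr1c14 stood above 98.8% of the tested genes at 0 h and above 79.5% at 6 h. The genes with the most similar profile over the 9 libraries were Ogdhl and Inhbb, with root mean square differences of 0.19 and 0.22 on the log2 scale. Inhbb, an inhibin and activin subunit, averaged 117 ± 15.0 FPKM at 6 h and 1239 ± 51.6 FPKM at 0 h (SD, n = 3 each). It is also among the granulosa markers. As it was named for its similar profile, its shared fall with Akr1c14 follows from that choice. In that list 8 of 10 genes were called lower at 6 h against 0 h, beside 27.9% of all tested genes. Amh and Nr5a1 were not called, and Nr5a1 averaged 66.4 FPKM at 6 h and 78.4 FPKM at 0 h. In bulk RNA fewer cells of a type and less RNA per cell cannot be told apart.

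Akr1c18 encodes the reductase that turns progesterone into an inactive hydroxyprogesterone, and in rodents its rise in the corpus luteum precedes birth. It was at 33.3, 33.7 and 16.8 FPKM at 0 h, at 39.5, 215 and 41.0 FPKM at 1 h, and at 49.2, 85.7 and 49.6 FPKM at 6 h. All later libraries were above those of 0 h, but replicate 2 stood well apart at 1 h and was also highest at 6 h. Neither change was called in the fit of all libraries, but the one at 6 h was called in several alternatives. The log2 change was 1.13 ± 0.58 at 6 h against 0 h (adjusted p 0.123, limma), with means of 61.5 ± 21.0 and 27.9 ± 9.65 FPKM (SD, n = 3 each). At 1 h against 0 h it was 1.37 ± 0.58 (adjusted p 0.140, limma). Without replicate 2 of 1 h, the 1 h against 0 h change was 0.58 (adjusted p 0.249, limma), and the 6 h against 0 h change, 1.13, was called (adjusted p 0.00855, limma). It was called as well with that library kept, when only the 0 h and 6 h libraries were fitted (adjusted p 0.0141, limma). Without replicate 2 of both 1 h and 6 h it was 0.87 (adjusted p 0.0286, limma). The 6 h against 1 h change was -0.25 ± 0.58 (adjusted p 0.745) with that library and 0.55 without it (adjusted p 0.181, limma).

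In replicate 2 of 1 h, Akr1c18 lay 2.37 log2 units above the next 1 h library, a gap reached by 4 of 14535 genes there and by 1 to 4 genes in any library. This library held less Cyp19a1, the aromatase that makes estradiol, with 645 FPKM beside 1264 and 1312 FPKM in the other 1 h libraries. The early nuclear receptor Nr4a1 was at 568 FPKM there, beside 993 and 980 FPKM. Its granulosa markers summed to 9536 FPKM, beside 12665 and 14457 FPKM, and its theca markers to 485 FPKM, beside 757 and 654 FPKM. Most granulosa markers were lowest in this library, but Amh (125 FPKM, beside 54.2 and 85.4 FPKM) and Foxl2 were highest. Among theca markers, Ptch1 was highest there, at 22.4 FPKM beside 16.3 and 12.7 FPKM. Star, a gene of progesterone synthesis, was also highest there, at 346 FPKM beside 271 and 308 FPKM. The part of these differences in the Akr1c18 value was not tested. The most similar profiles, those of Cdkn2b and Onecut2, differed from Akr1c18 by 0.55 and 0.57, more than the nearest genes of Akr1c14 differed from it. The lists held 8 genes for signals known to act on Akr1c18 in the corpus luteum. At 6 h against 0 h, 3 were called higher (Nr4a1, Jund and Stat5b) and 1 lower (Stat5a). Among all tested genes 28.8% were called higher and 27.9% lower, so the count by itself says little about these signals. Ptgfr, the receptor for the prostaglandin that ends luteal function, averaged 49.3 ± 5.84 FPKM at 6 h and 45.3 ± 5.25 FPKM at 0 h (adjusted p 0.385, limma). It had risen 3.50-fold at 1 h against 0 h (log2 change 1.79 ± 0.11, adjusted p 8.29e-06, limma). Prlr, the receptor for prolactin, which holds Akr1c18 down in the rodent corpus luteum, was at 220 ± 31.7 FPKM at 6 h and 188 ± 15.8 FPKM at 0 h, and was not called (adjusted p 0.123, limma).

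The balance within the cluster inverted. The FPKM of Akr1c18 divided by that of Akr1c14 was 0.123, 0.126 and 0.0486 at 0 h, 0.157, 1.07 and 0.167 at 1 h, and 1.58, 3.32 and 1.59 at 6 h. Akr1c14 was thus the more abundant RNA in all 0 h libraries and in 2 of the 3 at 1 h, and Akr1c18 in all 6 h libraries. The log2 ratio was 4.48 higher at 6 h than at 0 h, with an exact two-sided permutation p of 0.1, the smallest that 3 against 3 libraries allow. The ratio within a library does not depend on how that library was scaled. The annotation places 9 genes in this cluster, of which 5 were below 1 FPKM in every library. Akr1c13, which lies beyond Akr1c18, had 1.24, 0.434 and 1.08 FPKM at 6 h and 13.9, 5.89 and 10.02 FPKM at 0 h, a log2 change of -2.46 ± 0.30 (adjusted p 9.32e-05, limma). Akr1e1 at the far end averaged 3.77 ± 0.206 FPKM at 6 h and 6.94 ± 2.03 FPKM at 0 h. The share of 50-base transcript windows also found in another gene was 5.80% for Akr1c14 and 0.581% for Akr1c18. The gene sharing them was the overlapping pseudogene Gm18857 for Akr1c14, and for Akr1c18 it was Akr1cl, which is outside these 9 genes.

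**Figure D2:**
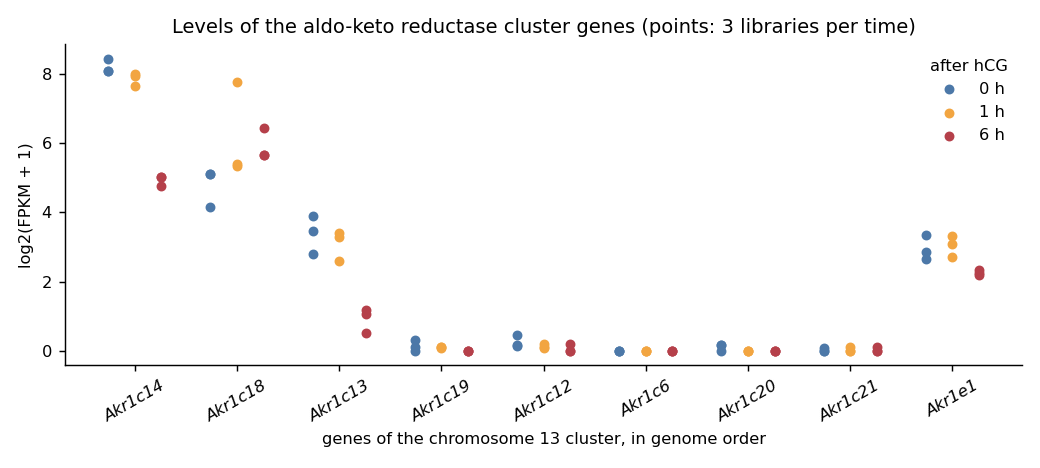
Levels of the 9 aldo-keto reductase cluster genes as log2(FPKM + 1), in genome order, with 3 libraries per time. Akr1c14 and Akr1c13 drop at 6 h while Akr1c18, between them, lies above its 0 h level, and 5 genes stay near 0.

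Srd5a1 encodes a reductase that saturates progesterone and testosterone, supplying substrate for Akr1c14. The gene (ENSMUSG00000021594) spans chr13:69573449-69611442 on the minus strand. It was at 4.44, 3.59 and 4.01 FPKM at 0 h, at 3.28, 3.28 and 2.40 FPKM at 1 h, and at 1.70, 1.96 and 2.28 FPKM at 6 h. The groups did not overlap, with the 0 h libraries highest and those of 6 h lowest. It fell 2.03-fold at 6 h against 0 h (log2 change -0.75 ± 0.13, adjusted p 0.000937, limma). At 6 h against 1 h it fell 1.51-fold (log2 change -0.42 ± 0.13, adjusted p 0.0242, limma), a call that was lost without replicate 1 or 2 of either time (adjusted p 0.0609 to 0.0833). At 1 h against 0 h the log2 change was -0.34 ± 0.13 (adjusted p 0.120, limma), and it was called only with FPKM scaled to a common sum (-0.46, adjusted p 0.0397). Srd5a1 overlaps Nsun2 on the opposite strand, which averaged 25.8 FPKM, and the labels do not say whether strand was kept. On the same strand Srd5a1 overlaps Gm17108, which is not among the genes of the data. Of the 50-base transcript windows of Srd5a1, 15.1% were also found in another gene, and that gene was Gm17108. Srd5a3, a relative, was at 7.46 ± 0.810 FPKM at 6 h and 12.2 ± 1.22 FPKM at 0 h (log2 change -0.65 ± 0.10, adjusted p 0.000347, limma). Srd5a2 was below 1 FPKM in every library. Both expressed reductases of this family and Akr1c14 were therefore lower at 6 h than at 0 h.

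Hsd11b1 encodes the enzyme that regenerates active glucocorticoid inside the cell. The gene (ENSMUSG00000016194) spans chr1:193221634-193264075 on the minus strand. It was at 0.307, 0.246 and 0.146 FPKM at 0 h, at 0.381, 0.263 and 0.389 FPKM at 1 h, and at 0.239, 0.121 and 0.361 FPKM at 6 h. It therefore failed the filter, the groups overlapped, and its 5 rows took very different shares from library to library. Its counterpart Hsd11b2, which inactivates glucocorticoid, was abundant and fell. Hsd11b2 had 8.92, 9.04 and 13.6 FPKM at 6 h and 52.7, 51.4 and 53.6 FPKM at 0 h, a log2 change of -2.24 ± 0.13 (adjusted p 6.13e-07, limma). H6pd, which supplies the cofactor of Hsd11b1, averaged 23.5 ± 0.429 FPKM at 6 h and 13.5 ± 1.54 FPKM at 0 h (log2 change 0.76 ± 0.10, adjusted p 0.000114, limma). Of 9 tested glucocorticoid target genes, 8 were called higher and none lower at 6 h against 0 h, beside 28.8% higher among all tested genes, with a median log2 change of 1.51. The largest changes were those of Mt2 (2.92 ± 0.16), Zbtb16 (2.81 ± 0.11) and Tsc22d3 (1.98 ± 0.11). Several of these target genes respond to other signals too. Hsd11b1 itself was below 1 FPKM throughout. The cause of the higher target levels was not tested.

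Hsd17b4 encodes a peroxisomal enzyme that carries out a pair of steps in the oxidation of very long chain fatty acids and can oxidise estradiol to estrone. The gene (ENSMUSG00000024507) spans chr18:50128201-50196269 on the plus strand. It was at 37.1, 33.5 and 35.1 FPKM at 0 h, at 37.5, 37.3 and 36.8 FPKM at 1 h, and at 39.1, 44.1 and 39.4 FPKM at 6 h. The 6 h libraries lay above all others by a narrow margin. The call at 6 h against 0 h (1.16-fold, log2 change 0.21 ± 0.07, adjusted p 0.0237, limma) was the only 1 of the 5 to be lost under an alternative in which it was tested. It was lost with FPKM scaled to a common sum (0.12, adjusted p 0.153), under quantile normalization (0.08, adjusted p 0.336) and without replicate 2 or 3 of 0 h or replicate 2 of 6 h (adjusted p 0.057 to 0.0999). The change was 0.08 ± 0.07 at 1 h against 0 h (adjusted p 0.477) and 0.13 ± 0.07 at 6 h against 1 h (adjusted p 0.133, limma). Of 16 tested peroxisomal partners, 4 were called higher at 6 h against 0 h and 7 lower, beside 28.8% higher and 27.9% lower among all tested genes, with a median log2 change of -0.21. Pex5, the import receptor that recognises such enzymes, averaged 23.99 ± 1.00 FPKM at 6 h and 12.3 ± 0.974 FPKM at 0 h (adjusted p 5.66e-05, limma). Decr2, a peroxisomal reductase, averaged 5.17 ± 1.38 FPKM at 6 h and 10.4 ± 0.891 FPKM at 0 h (adjusted p 0.000395, limma).

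Hsd17b11 encodes a dehydrogenase of lipid droplets that oxidises a reduced androgen, the diol made from dihydrotestosterone. It was at 34.8, 30.4 and 44.8 FPKM at 0 h, at 36.3, 32.1 and 33.1 FPKM at 1 h, and at 103, 101 and 102 FPKM at 6 h. The 6 h libraries were close together and far above every other, and those of 0 h and 1 h overlapped. The log2 change was 1.47 ± 0.12 at 6 h against 0 h (adjusted p 5.57e-06, limma) and 1.56 ± 0.12 at 6 h against 1 h, a 3.01-fold rise (adjusted p 4.48e-06, limma). At 1 h against 0 h it was -0.10 ± 0.12 (adjusted p 0.645, limma). The window printed for Hsd17b11 was the only 1 of the 4 with a C/EBP match. The nearest profiles were those of Sntb2, which differed by 0.11 on the log2 scale, and Phldb2, which differed by 0.12. Sntb2 averaged 48.6 ± 0.854 FPKM at 6 h and 16.5 ± 1.53 FPKM at 0 h.

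The gene has 2 rows in the tables, and they did not keep their proportion. The less abundant row held 15.0%, 13.9% and 12.98% of Hsd17b11 FPKM at 6 h and 5.16%, 4.99% and 9.05% at 0 h. Its mean level was 14.2 ± 1.13 FPKM at 6 h and 2.45 ± 1.39 FPKM at 0 h, while the major row was at 87.7 ± 1.03 FPKM at 6 h and 34.2 ± 6.00 FPKM at 0 h. The groups did not overlap, with an exact two-sided permutation p of 0.1, the smallest that 3 against 3 libraries allow. The tables give no transcript names, so the row is not identified. Of 13 tested lipid droplet genes, 2 were called higher at 6 h against 0 h (Abhd5 and Pnpla2) and 7 lower, beside the same 28.8% and 27.9% of all tested genes. Abhd5, the activator of the lipase that Pnpla2 encodes, averaged 11.9 ± 1.70 FPKM at 6 h and 4.74 ± 0.752 FPKM at 0 h (adjusted p 0.000283, limma). Plin1, a droplet coat protein, was at 0.305 ± 0.262 FPKM at 6 h and 2.45 ± 0.355 FPKM at 0 h (adjusted p 8.63e-05, limma). Hsd17b13, another dehydrogenase of lipid droplets, was below 1 FPKM in every library.

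**Figure D3:**
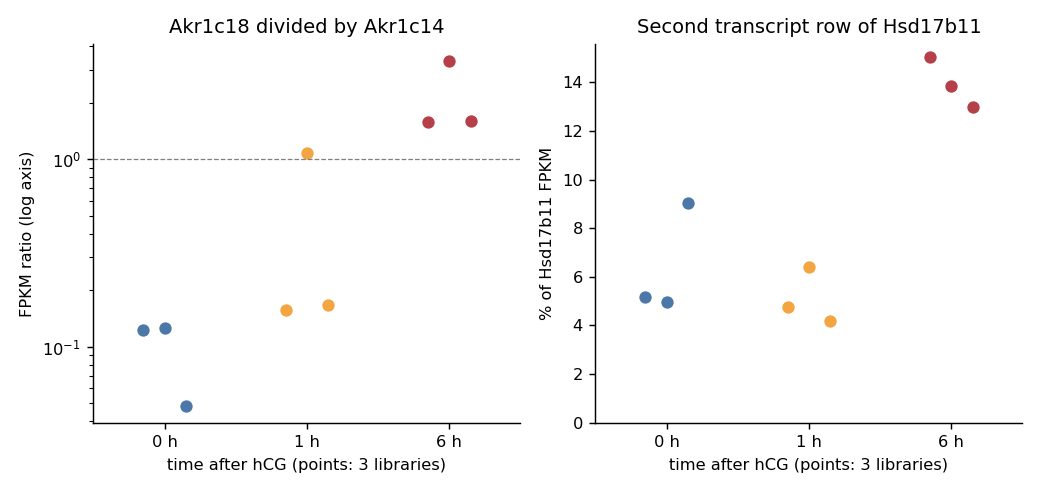
Left, the ratio of Akr1c18 to Akr1c14 FPKM in each library on a log axis, with a dashed line at equality; right, the share of Hsd17b11 FPKM in its less abundant transcript row. All 3 libraries of 6 h lie above equality on the left, from 1.58 to 3.32, and between 12.98% and 15.0% on the right.

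Hsd17b12 encodes the ketoreductase of the cycle that lengthens fatty acids and can also reduce estrone to estradiol. It was at 64.7, 57.3 and 55.3 FPKM at 0 h, at 69.2, 59.2 and 71.3 FPKM at 1 h, and at 99.2, 92.7 and 91.1 FPKM at 6 h. The 6 h libraries were above all others, and those of 0 h and 1 h overlapped. The log2 change was 0.67 ± 0.09 at 6 h against 0 h (adjusted p 0.000133, limma) and 0.50 ± 0.09 at 6 h against 1 h, a 1.42-fold rise (adjusted p 0.000962, limma). At 1 h against 0 h it was 0.17 ± 0.09 (adjusted p 0.228, limma). Of 12 tested genes of fatty acid elongation, 3 were called higher at 6 h against 0 h (Hacd2, Elovl4 and Elovl1) and 4 lower (Elovl6, Hacd4, Tecr and Elovl2), shares near those of all tested genes (28.8% and 27.9%). Hacd2, a dehydratase of the step after Hsd17b12, averaged 18.6 ± 0.762 FPKM at 6 h and 9.12 ± 0.0938 FPKM at 0 h (adjusted p 5.17e-06, limma). The more abundant dehydratase gene Hacd3 averaged 66.9 ± 11.9 FPKM at 6 h and 66.3 ± 1.23 FPKM at 0 h (adjusted p 0.999, limma). Hacd1 was not called either, and Hacd4 was lower. Tecr, the reductase that closes the cycle, averaged 165 ± 3.08 FPKM at 6 h and 237 ± 12.7 FPKM at 0 h (adjusted p 0.000411, limma).

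Of the other genes listed as 17-beta dehydrogenases, 5 were tested, among them Cbr4, which is not named as an HSD17B gene. Hsd17b2 was near the filter, with means of 0.577 FPKM at 6 h and 1.13 FPKM at 0 h. Of these 5, none was called higher and 4 lower at 6 h against 0 h (Hsd17b1, Cbr4, Hsd17b10 and Hsd17b2). Among all tested genes 28.8% were called higher and 27.9% lower. The median log2 change of the 5 was -0.86. Hsd17b1, which reduces estrone to estradiol in granulosa cells, had 79.4, 71.3 and 85.7 FPKM at 6 h and 392, 368 and 389 FPKM at 0 h (log2 change -2.27 ± 0.09, adjusted p 7.29e-08, limma). Hsd17b7 averaged 79.7 ± 10.4 FPKM at 6 h and 68.2 ± 10.4 FPKM at 0 h a 1.17-fold difference that was not called (adjusted p 0.283, limma). The level of Hsd17b1 was below those of Hsd17b11 and Hsd17b12 in all 6 h libraries, and above those of Hsd17b4, Hsd17b11 and Hsd17b12 in all 0 h libraries.

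**Figure D4:**
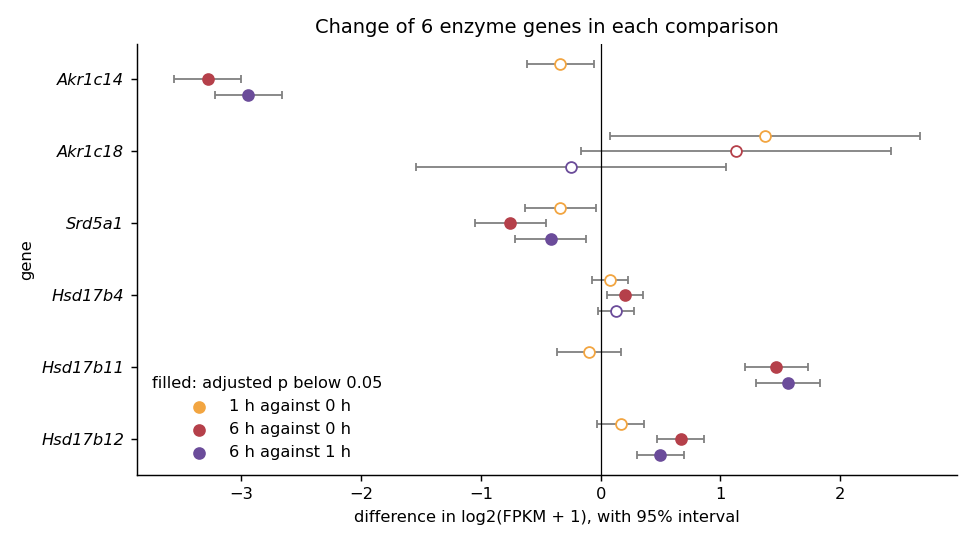
Difference in log2(FPKM + 1) of the 6 tested genes in each comparison, with its 95% interval from limma; filled points are called at an adjusted p below 0.05. Akr1c14 lies at -3.28 and Hsd17b11 at 1.47 at 6 h against 0 h, and the intervals of Akr1c18 are the widest.

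At 1 h after hCG no change in the group was called. None of the 6 tested genes was called higher or lower against 0 h, while 15.7% of all tested genes were called, 9.68% higher and 5.98% lower. At an unadjusted p below 0.05, 3 of the 6 passed (Akr1c14, Akr1c18 and Srd5a1), beside 30.9% of all tested genes. Between 1 h and 6 h, Hsd17b11 and Hsd17b12 were called higher and Akr1c14 and Srd5a1 lower, or 4 of 6 genes beside 53.5% of all tested genes, of which 26.7% were higher and 26.9% lower. Each of the 3 comparisons shares libraries with the other two. Among 4 tested related genes, Akr1b7 and Akr1b8, reductases of the same superfamily, had already risen at 1 h. The other 2, Akr1c13 and Akr1cl, were not called at 1 h and were called lower at 6 h against 0 h. Akr1cl averaged 537 ± 6.99 FPKM at 0 h and 286 ± 14.7 FPKM at 6 h. Its log2 change was -0.91 ± 0.09 (adjusted p 1.56e-05, limma). Akr1b7 averaged 0.588 ± 0.207 FPKM at 0 h, 3.50 ± 1.94 FPKM at 1 h and 37.6 ± 4.203 FPKM at 6 h. Its log2 change was 1.43 ± 0.25 at 1 h against 0 h (adjusted p 0.00483, limma) and 4.61 ± 0.25 at 6 h against 0 h (adjusted p 4.53e-07, limma).

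The order of levels within the group also changed. At 0 h, Akr1c14 made up 64.2% ± 4.19 of the summed FPKM of the 7 genes (SD, n = 3). Hsd17b12 followed with 12.99%, and Hsd17b11, Hsd17b4 and Akr1c18 came next with levels that overlapped between libraries. At 1 h Akr1c14 still held 50.4% ± 11.9, and the Akr1c18 libraries, spread from 39.5 to 215 FPKM, overlapped with those of Akr1c14 and Hsd17b12. At 6 h Akr1c14 held 8.95% ± 1.39, and the order ran Hsd17b11 with 30.9% ± 1.96, Hsd17b12 with 28.6% ± 2.13, Akr1c18 with 18.4% ± 5.18 and Hsd17b4 with 12.4% ± 0.247. No neighbours in the 6 h order overlapped in FPKM between libraries. In shares, Hsd17b11 (28.7% to 32.3%) and Hsd17b12 (26.4% to 30.7%) did overlap. The mean share of Srd5a1 was 0.880%, 0.635% and 0.601% at 0, 1 and 6 h, and that of Hsd11b1 was 0.0519%, 0.0751% and 0.0742%. The sum itself was 458 ± 38.8 FPKM at 0 h, 472 ± 66.2 FPKM at 1 h and 330 ± 18.5 FPKM at 6 h.

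Steroid synthesis moved as follows around these enzymes at 6 h against 0 h. Of 8 tested genes of progesterone synthesis, 6 were called higher and 1 lower, beside 28.8% and 27.9% of all tested genes, with a median log2 change of 0.60. Star, which brings cholesterol into mitochondria, averaged 606 ± 86.0 FPKM at 6 h and 96.4 ± 10.5 FPKM at 0 h (adjusted p 2.29e-07, limma). Cyp11a1, which makes pregnenolone, averaged 1187 ± 58.8 FPKM at 6 h and 857 ± 168 FPKM at 0 h (adjusted p 0.0186, limma), a call that several settings lost. Hsd3b1, which makes progesterone, was the gene called lower, with 1798 ± 245 FPKM at 6 h and 3525 ± 296 FPKM at 0 h (adjusted p 0.000463, limma). All 3 genes of androgen and estradiol synthesis were called lower. Cyp19a1 averaged 20.5 ± 2.46 FPKM at 6 h and 191 ± 8.002 FPKM at 0 h, a 9.33-fold fall (adjusted p 2.71e-06, limma). Cyp17a1, which makes androgens in theca cells, averaged 21.9 ± 5.04 FPKM at 6 h and 123 ± 32.3 FPKM at 0 h (adjusted p 5.96e-05, limma).

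Conjugation and receptors changed as well. Sult1e1, the sulfotransferase that inactivates estradiol, was at 730, 975 and 795 FPKM at 6 h, while at 0 h it was listed at 0 in 2 libraries and at 0.0567 FPKM in the other. It was the only 1 of 5 tested conjugation genes called higher, and 3 were called lower (Ugt1a6a, Papss1 and Papss2). The shares over all tested genes were 28.8% higher and 27.9% lower. Among steroid receptors, Pgr and Nr3c1 were called higher and the estrogen receptors Esr1 and Esr2 lower. Pgr, the progesterone receptor, averaged 39.8 ± 4.54 FPKM at 6 h and 0.272 ± 0.0616 FPKM at 0 h (adjusted p 1.74e-08, limma). The higher call of Nr3c1, the glucocorticoid receptor, was lost with the most abundant row in place of the sum (adjusted p 0.906, limma).

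**Figure D5:**
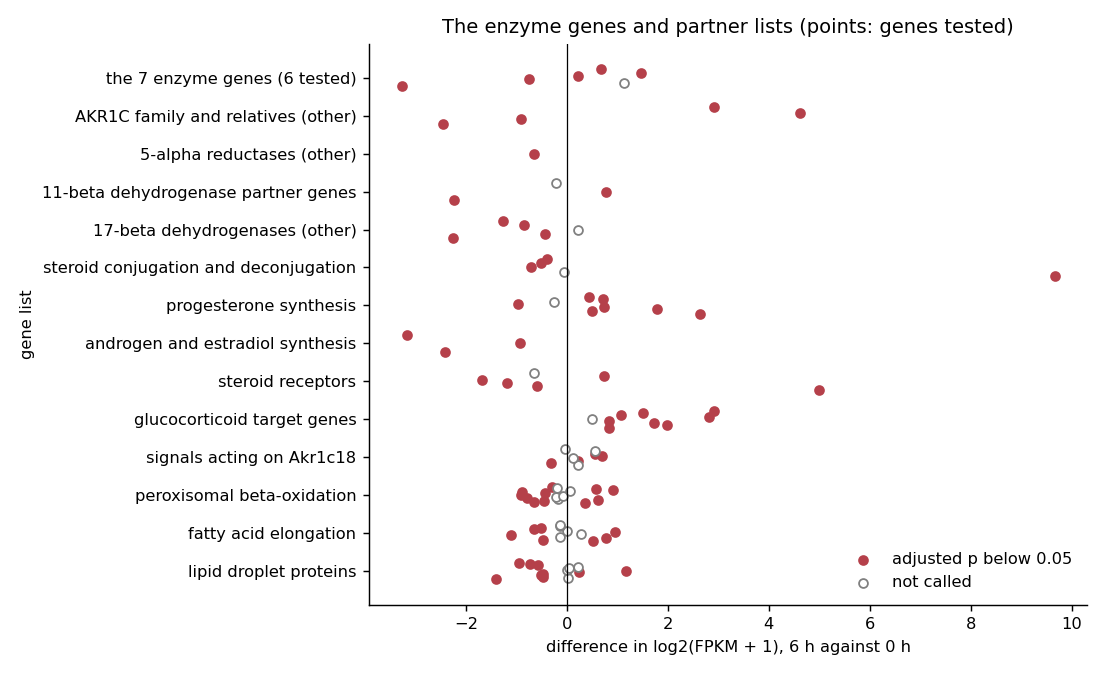
Difference in log2(FPKM + 1) at 6 h against 0 h for the tested enzyme genes and for the tested genes of each partner list; filled points are called at an adjusted p below 0.05. Glucocorticoid target genes lie to the right of 0, the other HSD17B genes mostly to the left, and the point farthest right is Sult1e1.

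Markers of other cells moved with time too. Oocyte markers were called higher at 6 h against 0 h in 9 of 9 genes, beside 28.8% of all tested genes. Their summed levels were 76.8 to 115 FPKM at 6 h and 42.5 to 67.4 FPKM at 0 h. Theca markers were called lower in 3 of 5 tested genes (Cyp17a1, Aldh1a1 and Lhcgr), beside 27.9% of all tested genes. The sum of all 6 was 145 to 206 FPKM at 6 h and 431 to 534 FPKM at 0 h. Its largest part was Lhcgr, the LH receptor that hCG binds, so the sum does not measure theca content by itself. Ptch1 averaged 20.4 FPKM at 6 h and 21.6 FPKM at 0 h, and Insl3 0.616 and 0.601 FPKM. Neither was called. Stroma and smooth muscle markers summed to 93.2 to 112 FPKM at 6 h and 105 to 160 FPKM at 0 h, and endothelial markers to 29.1 to 39.4 FPKM at 6 h and 20.5 to 29.0 FPKM at 0 h. Leukocyte markers summed to 17.5 to 24.6 FPKM at 6 h and 19.1 to 33.0 FPKM at 0 h. Surface epithelium markers summed to 17.8 to 24.5 FPKM at 6 h and 24.02 to 27.7 FPKM at 0 h, and erythroid markers to 69.5 to 133 FPKM at 6 h and 133 to 202 FPKM at 0 h. The part of these shifts in the enzyme changes was not tested.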

How the data were processed

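RNA-seq was analysed for 9 granulosa cell libraries, 3 at each of 0, 1 and 6 h after hCG, grouped by their titles. Trizol RNA went into libraries of a TruSeq RNA kit, per the labels' protocols. The authors deposited FPKM values for 54759 rows per library. The submitters' processing notes list HISAT2 2.0.5 and the build mm10. How FPKM were computed, and from which annotation, is not given in the sources used here. Depth is unknown, and the number of libraries limits precision.

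Rows were summed per gene identifier. Tests used limma 3.58.1 (R 4.3.3) on log2(FPKM + 1), a pseudocount of 1 (trended prior variance, 1 fit of 3 group means over 9 libraries, 6 residual degrees of freedom) for genes that reached 1 FPKM in 3 libraries or more. Benjamini-Hochberg adjustment ran over all 14535 genes tested, and the test was checked on simulated data. Shares and ratios within libraries were compared by exact permutation. Promoters came from RefSeq (GRCm38.p6), matched for 6 of the 7 genes, and gene spans from GENCODE M21. The planned protein comparison was not run.

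The members, partner lists and markers were chosen with earlier results of these data known. Named list genes are direct partners of a member and, per list and comparison, up to 3 called genes with the largest change. Others were named after their values were seen, where 5 or fewer were called or a value bore on a named gene. For 3 members, the 2 genes with the smallest root mean square difference of centred log2(FPKM + 1) profiles were named. Hsd17b8 and Sts were not analysed here, and some list genes are not reported here. Alternatives were other scalings, pseudocounts, filters and priors, the most abundant row, only the times compared, a replicate block, and libraries left out.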

Additional observations from a re-analysis of the deposited data

How the results depend on the processing

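The calls at 6 h against 0 h of Akr1c14, Hsd17b11 and Hsd17b12 kept their direction and call under every alternative run, and that of Srd5a1 did wherever it was tested. Its mean was too low for a filter at 5 FPKM, so that the number of the 7 genes called lower was 1 in place of 2 there, at 6 h against 0 h and at 6 h against 1 h. At 6 h against 1 h it was 1 to 2 with single libraries left out, and 1 without replicate 2 at 1 h and 6 h, an alternative chosen after seeing the data. At 1 h against 0 h the genes called lower numbered 2 with FPKM scaled to the mean sum, 1 under quantile normalization and 1 with the replicate block, in place of 0. Scaling to the mean sum moved the median gene by -0.14 at 1 h against 0 h. All genes called lower there numbered 2634 in place of 869, and higher calls made up 27.6% of calls in place of 61.8% (47.7% under quantile normalization). With single libraries left out, 295 to 1223 genes were called lower and 904 to 1601 higher. Partner genes called lower at 1 h numbered 13 with the mean sum, 7 with quantile normalization and 1 to 4 with single libraries left out, in place of 3. Directions reversed for uncalled changes at 1 h against 0 h. Hsd17b4 was at -0.078 with the mean sum and -0.053 under quantile normalization, and Hsd17b12 at -0.031 and Prlr at -0.061 under quantile normalization. Hsd17b11 ranged from -0.22 to 0.054 with single libraries left out, the last without replicate 3 of 0 h. Stat5a, called lower at 1 h, was at 0.34 and uncalled with the most abundant row. Akr1c18 at 6 h against 1 h ranged from -0.66 to 0.55 with single libraries left out, the last without replicate 2 of 1 h, and was at 0.29 without replicate 2 at 1 h and 6 h. The cause was not tested. Same-number libraries had correlations of deviations of -0.0783 to 0.147 and different-number libraries -0.151 to 0.0861. Not every same-number value was over 0.1 and not every library correlated best with its own number, so the numbers were not taken as pairs. With the replicate block Akr1c14 was called lower at 1 h against 0 h (adjusted p 0.0394, limma) and Akr1c18 higher at 6 h against 0 h (adjusted p 0.0373, limma). Scp2, Pnpla2 and Cyp11a1 each lost their 6 h call in 1 or more settings. Unknown depth limits what can be said of Hsd11b1.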
